A study of Arabidopsis thaliana with 10 samples.

Results

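Pistils of Arabidopsis thaliana (ecotype Columbia) collected 3.5 h after pollination (3.5 HAP, hours after pollination) were compared with unpollinated pistils, to describe which genes differ while pollen tubes grow through the pistil. The comparison rests on 4 of the 10 arrays of the series, 2 per group, chosen by their titles, and on 22745 of its 22810 probe sets, leaving out 64 control probe sets and 1 without values. The other 6 arrays are pistils at 0.5 HAP and 8 HAP and unfertilised ovules dissected from unpollinated pistils. Flowers of all pistil groups were emasculated at floral stage 12c, 24 h ahead of pollination, and no allele or transgene is named for any group; the labels do not name the pollen parent. Each pistil array was hybridised with RNA of its own pool of 20 pistils from at least 10 plants. The p-values measure the spread between pools, estimated over all 5 groups, ovules included. A pollinated pistil was frozen with the pollen and pollen tubes inside it. RNA brought by pollen and RNA made by pistil tissue therefore cannot be told apart, and neither can fewer cells of a type and less RNA per cell.

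A pollen grain that lands on a stigma papilla takes up water and puts out a tube, which grows at its tip down the transmitting tract of the style and ovary until it reaches an ovule. The tube wall is rich in pectin, whose stiffness is set by pectinesterases, their inhibitors, pectate lyases and polygalacturonases, and receptor kinases with small RALF peptides keep the growing tip from bursting. The pistil feeds and guides the tube, and pollination is known to start changes in the flower that prepare the ovary for fruit growth.

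Array medians lay between 251.5 and 272.2 on a linear intensity scale. Values up to 136.5, the 95th percentile of bacterial control probe sets, are called background level below; differences were taken after adding 16 and taking log2, so that changes near that level come out too small and a fold with 1 mean there gives no exact size or rank. Replicate arrays correlated across probe sets at r = 0.99071 in unpollinated pistils and r = 0.99598 at 3.5 HAP, and log2 differences between replicates had an SD of 0.23 and 0.151. Of 2 RNA quality controls, actin set unpollinated replicate 2 apart and GAPDH did not. Its actin probe sets had a 3' over 5' signal of 2.96 in log2 units. Unpollinated replicate 1 had 1.95, the 3.5 HAP arrays 2.15 and 1.93, and no remaining array more than 2.55. For GAPDH it had 2.71, against 2.35 in unpollinated replicate 1, 2.26 on both 3.5 HAP arrays and 2.74 on 8 HAP replicate 1. Unpollinated replicate 2 gave the higher of the 2 unpollinated values for 8874 of 13349 genes.

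Of the 13349 genes that a probe set names alone, 3765 (28.2%) passed limma's test at 3.5 HAP (Benjamini-Hochberg adjusted p below 0.05); 1459 (10.9%) rose and 2306 (17.3%) fell. The rises were larger: 253 genes (1.9%) rose and 122 (0.914%) fell by at least 2-fold. Among the 253, the median level was 99.15 before pollination, reached 307.3 after 0.5 h and 425.8 after 3.5 h, and stood at 398.4 after 8 h; ovules had 75.5. Their means were at background level in unpollinated pistils for 155 genes (61.3%) and at 3.5 HAP for 23 (9.09%). Over all genes these shares were 35.9% and 37.6%. The 122 strong falls had a median of 671.0 in unpollinated pistils and 194.7 at 3.5 HAP, with 43 of them (35.2%) at background level at 3.5 HAP. The same arrays chose both sets, so nothing is read from the background shares. Both arrays of 1 group lay apart from both of the other in 8242 of the 13349 genes. Most genes named below were also chosen for this, so nothing is read from groups that do not overlap. Over all probe sets 6796 (29.9%) differed, and 43.1% of these were rises. With arrays centred on 7 reference genes the share of rises was 54.0% of 5218, so which direction prevailed depended on the scaling. Without 3.5 HAP replicate 1 or 2 that total was 4181 or 3981, and among named genes the rises numbered 985 or 936 and the falls 1292 or 1234. Without unpollinated replicate 2 the falls numbered 1515.

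**Figure D1:**
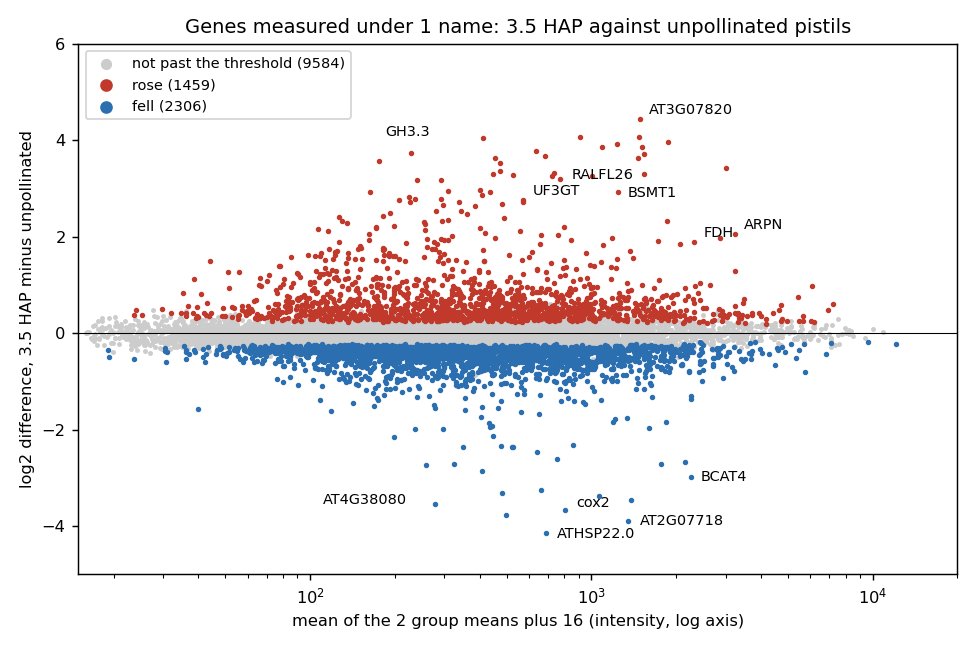
Log2 difference of each gene measured under 1 name (y axis, 3.5 HAP minus unpollinated, on the log2(value + 16) scale) against the mean of both group means plus 16 (x axis, intensity, log scale). Red points are the 1459 rises, blue points the 2306 falls and grey points the genes that did not pass; the rises reach 4.45 (AT3G07820) and the falls -4.14 (ATHSP22.0).

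Genes for pectin-modifying proteins were among the strongest rises. The 25 largest fitted differences were 9.24- to 21.8-fold. Of these genes 9 encode enzymes that modify pectin or members of families that inhibit such enzymes. Another 2 encode peroxidases and 2 proteins of the self-incompatibility S1 family, a plant family of small secreted proteins. The share of pectin genes among all genes was not counted, so nothing is read from the 9. On the list of 4 pectinesterases and their inhibitors 2 rose and 2 fell (50.0% each, against 10.9% and 17.3% of all genes). Only 1 of its rises was by at least 2-fold, so the list lacks most of the strongly risen genes of these families named here. Means of 17 of the 25 were at background level in unpollinated pistils and of 22 in ovules, against 35.9% and 38.9% of all genes. The unpollinated arrays helped choose the 25, and the ovules came from unpollinated pistils. Nothing is therefore read from the 17 or from the 22 in ovules. The direct comparison of 3.5 with 0.5 HAP, which uses the same 3.5 HAP arrays that chose the 25, called 22 of them higher (4.49% of all genes were); since those arrays are shared, nothing is read from this count. AT3G07820, a polygalacturonase, read 100.4 and 129.3 before pollination, then 2681 and 2964 at 3.5 HAP. The groups were far apart, by 21.8-fold (log2 4.45, SE 0.25, adjusted p = 2.28e-07). AT3G01270, a pectate lyase that acts on pectin without methyl esters, read 143.1 and 158.2 in unpollinated pistils against 2640 and 2890 (16.7-fold, adjusted p = 7.24e-09). AT5G07430, a pectinesterase, which removes those methyl esters, went from 71.5 and 96.6 to 1187 and 1313 (12.7-fold, adjusted p = 6.43e-08). All values of these 3 genes at 3.5 HAP lay above all unpollinated values, and their unpollinated means were at or near background level. A further pectinesterase, AT3G05610, rose 10.2-fold and a further polygalacturonase, AT5G48140, 9.70-fold. AT3G07820, AT5G07430, AT3G05610 and AT5G48140 are also on the pollen and pollen tube marker list used below. Genes placed by family with the pectinesterase inhibitors also rose: AT4G02250 by 14.5-fold, AT1G10770 by 12.5-fold, AT2G47050 by 9.57-fold and AT5G50030 by 9.55-fold. Which enzyme each of them inhibits was not tested.

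Pectin enzymes that unpollinated pistils already expressed changed in both directions. ATPMEPCRB rose from 642.0 and 465.2 to 1463 and 1467 (2.63-fold, adjusted p = 9.81e-06), and was lower again at 8 HAP (913.3 and 905.3; adjusted p = 0.00216 for 8 against 3.5 HAP). PMEPCRF fell from 1506 and 1532 to 1022 and 990.9 (log2 -0.59, adjusted p = 0.000168). ADPG1, a polygalacturonase of organ separation, fell 3.10-fold, from 915.0 and 748.9 to 239.5 and 274.3. In none of the 3 genes did the groups overlap, which held for 8242 of all 13349 genes.

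The label was checked against cell type markers. Of 16 measured pollen and pollen tube genes, 15 rose, ACT11 fell, and the median log2 difference was 1.77 against -0.08 for all genes; each count was the same without any 1 array. Over all genes 10.9% rose and 17.3% fell. The 15 rises include pectin enzyme genes already named above, so they are not a separate result. The summed level of the list was 2401.2 and 2113.2 on the unpollinated arrays. It was 5950.6 and 5865.6 after 0.5 h, 8916.6 and 10165.1 after 3.5 h, and 11247.7 and 11080.7 after 8 h, while ovules had 1856.9 and 1968.6. No member was at 0, but 14 of the 16 were at background level on both unpollinated arrays, against 3 and 2 at 3.5 HAP. TUA1, an alpha-tubulin strongly expressed in pollen, and ACT11, an actin of reproductive organs, were the members above it. ACT11 read 1148 and 787.3 before pollination, then 479.7 and 456.8 at 3.5 HAP, without overlap (adjusted p = 0.00127). Replicate 2 gave the higher value at 3.5 HAP for 15 of the 16. The part of this difference between the pools in other results was not tested. The 6 genes of anther wall, pollen coat and petals were at background level on both 3.5 HAP arrays, with summed levels of 497.5 and 480.5 against 550.7 and 609.3; 1 of them, AT1G75920, fell.

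**Figure D2:**
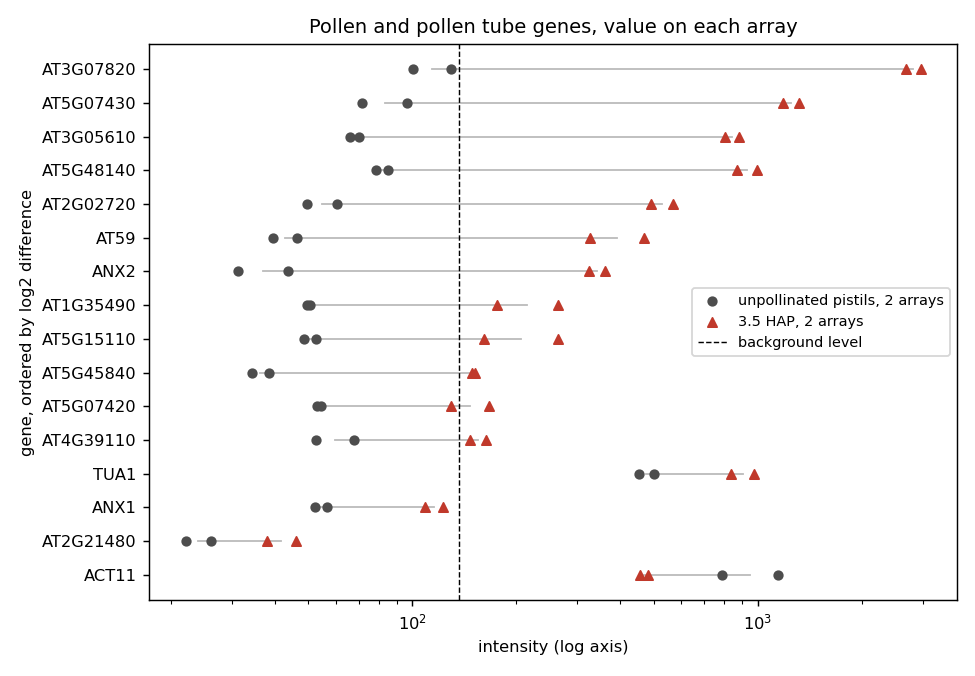
Intensity (x axis, log scale) of the 16 pollen and pollen tube genes (y axis) on each array; grey circles are the 2 unpollinated arrays, red triangles the 2 arrays at 3.5 HAP, grey bars join the group means on the log scale and the dashed line is the background level of 136.5. In 15 genes both triangles lie to the right of both circles, and in ACT11 to the left.

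Receptor kinases of the pollen marker list rose, ANX2 among them. ANX2, a receptor kinase that maintains the tube wall, went from 31.2 and 43.6 to 325.1 and 361.8 (6.77-fold, adjusted p = 3.93e-08), and was higher at 3.5 than at 0.5 HAP (154.4 and 150.4; adjusted p = 0.000262). Its partner ANX1 read 52.2 and 56.5 before pollination, then 108.8 and 123.1 at 3.5 HAP (adjusted p = 2.63e-05), so it rose without leaving the background level. The receptor-like kinases AT5G45840, AT4G39110 and AT2G21480 rose 3.18-, 2.25- and 1.44-fold. Of 19 secreted signal peptide genes 3 rose (15.8%) and 4 fell (21.1%), shares near the 10.9% and 17.3% of all genes, with 2 falls without 3.5 HAP replicate 2; the median log2 difference was -0.07. All 3 rises were RALF genes: RALFL26 read 114.7 and 157.4, then 1271 and 1487 (9.24-fold, adjusted p = 1.66e-08), while RALFL25 rose 3.41-fold and RALFL18 2.17-fold. RALFL22 was the largest of the falls, from 452.4 and 409.4 to 253.6 and 240.9 (adjusted p = 0.000105). The RALF genes that passed thus moved in both directions.

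3 neighbours of the S1 family on chromosome 3 rose, with different values at 0.5 HAP. AT3G26860 read 19.2 and 12.9 in unpollinated pistils, 137.8 and 127.1 after 0.5 h, then 399.4 and 418.2 after 3.5 h. AT3G26870 was still at 12.0 and 13.6 at 0.5 HAP, next to 10.96 and 11.67 unpollinated, and reached 346.2 and 271.2 at 3.5 HAP (adjusted p = 8.48e-08 for 3.5 against 0.5 HAP). AT3G26880 went from 59.5 and 45.6 at 0.5 HAP to 467.6 and 363.0. All 3 started at background level, so their folds, 13.3, 11.8 and 9.10, have no exact order. At 0.5 HAP all 3 were still at or near that level, and a difference in timing between them was not tested. Near-identical copies could share signal between such neighbours.

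Of 15 auxin genes 2 rose (13.3%) and 0 fell, shares read against 10.9% and 17.3% of all genes; 11 were at background level in both groups, and without unpollinated replicate 1, 3 rose and 2 fell. The rises were GH3.3 and GH3.17. GH3.3, whose enzyme joins auxin to amino acids and so removes free hormone, read 32.3 and 29.5 in unpollinated pistils, 60.1 and 74.1 after 0.5 h, then 839.6 and 679.9 after 3.5 h. That is 16.5-fold above unpollinated pistils (log2 4.04, SE 0.18, adjusted p = 4.16e-08) and 9.32-fold above 0.5 HAP (adjusted p = 2.11e-06); the level in ovules was at background. IAGLU, which joins auxin to glucose and is not on that list, read 524.2 and 589.4, then 632.8 and 572.5 after 0.5 h, then 1541 and 1612 after 3.5 h. It was 2.78-fold above unpollinated pistils (adjusted p = 9.11e-07) and fell again by 8 HAP, to 1084 and 1032 (adjusted p = 0.00155). GH3.17, of the same family as GH3.3, rose 1.31-fold from 870.7 and 814.1. ARL, a promoter of organ growth through cell expansion, rose from 833.3 and 921.0 to 3193 and 3222 (3.61-fold, adjusted p = 2.16e-08).

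Among genes of defence hormones, BSMT1 was chosen after its values were seen, and the jasmonate list held 3 genes, of which 2 rose. BSMT1, which methylates salicylic and benzoic acid, read 274.5 and 270.5 in unpollinated pistils, 1110 and 1173 after 0.5 h, then 2048 and 2334 after 3.5 h (7.63-fold, adjusted p = 2.16e-08). JMT, which methylates jasmonic acid, went from 46.7 and 58.0 to 138.2 and 154.1 (2.38-fold, adjusted p = 0.000197), from background to just above it. JRG21, a jasmonate-regulated gene, rose from 1303 and 1333 to 2183 and 2327 (1.70-fold, adjusted p = 0.000361) after lower values of 904.6 and 1050 at 0.5 HAP. OPCL1, of jasmonate synthesis and the last of the 3 jasmonate genes, read 605.9 and 480.0 against 543.8 and 529.6, overlapping groups with an adjusted p = 0.977. Of 7 WRKY factors, regulators of defence and senescence, 4 rose (57.1%, against 10.9% of all genes) and 0 fell, with 2 rises without 3.5 HAP replicate 2. WRKY53 went from 181.4 and 176.9 to 435.3 and 418.3 (2.27-fold, adjusted p = 5.2e-06) and WRKY6 from 281.4 and 273.1 to 419.1 and 440.9. WRKY22 rose within the background level and missed without 3.5 HAP replicate 2 (adjusted p = 0.0631). WRKY20 (log2 0.30) missed in 6 alternatives, among them without either 3.5 HAP array or unpollinated replicate 2 (adjusted p between 0.0511 and 0.202 over the 6).

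A peroxidase peaked at 3.5 HAP among the pistil groups. A lignin enzyme was higher at 3.5 HAP than in unpollinated pistils and at 8 HAP. AT5G39580, a class III peroxidase, read 72.1 and 61.0 unpollinated, 65.5 and 79.4 after 0.5 h, 808.7 and 785.6 after 3.5 h, then 360.4 and 396.3 after 8 h. It was 9.88-fold above unpollinated pistils (adjusted p = 2.87e-09) and fell by 8 HAP (adjusted p = 6.69e-05), whereas the peroxidase AT5G47000 had already reached 564.2 and 565.8 at 0.5 HAP. CCR2, a cinnamoyl-CoA reductase of lignin synthesis, rose 3.03-fold, from 86.4 and 71.3 to 267.1 and 274.5, and was lower at 8 HAP (adjusted p = 0.000348). FDH, formate dehydrogenase of mitochondria, read 1061 and 889.0, then 2008 and 1906 after 0.5 h, 3473 and 3800 after 3.5 h, then 1474 and 1462 after 8 h. Its difference from unpollinated pistils was 3.70-fold (adjusted p = 2.39e-06), and both neighbouring times were lower (adjusted p = 0.00206 and 0.000116). PPDK, a phosphoenolpyruvate-forming dikinase, rose 2.97-fold and ECS1, a cell wall protein linked to bacterial infection, 3.94-fold, from 1248 and 1056 to 4423 and 4707.

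**Figure D3:**
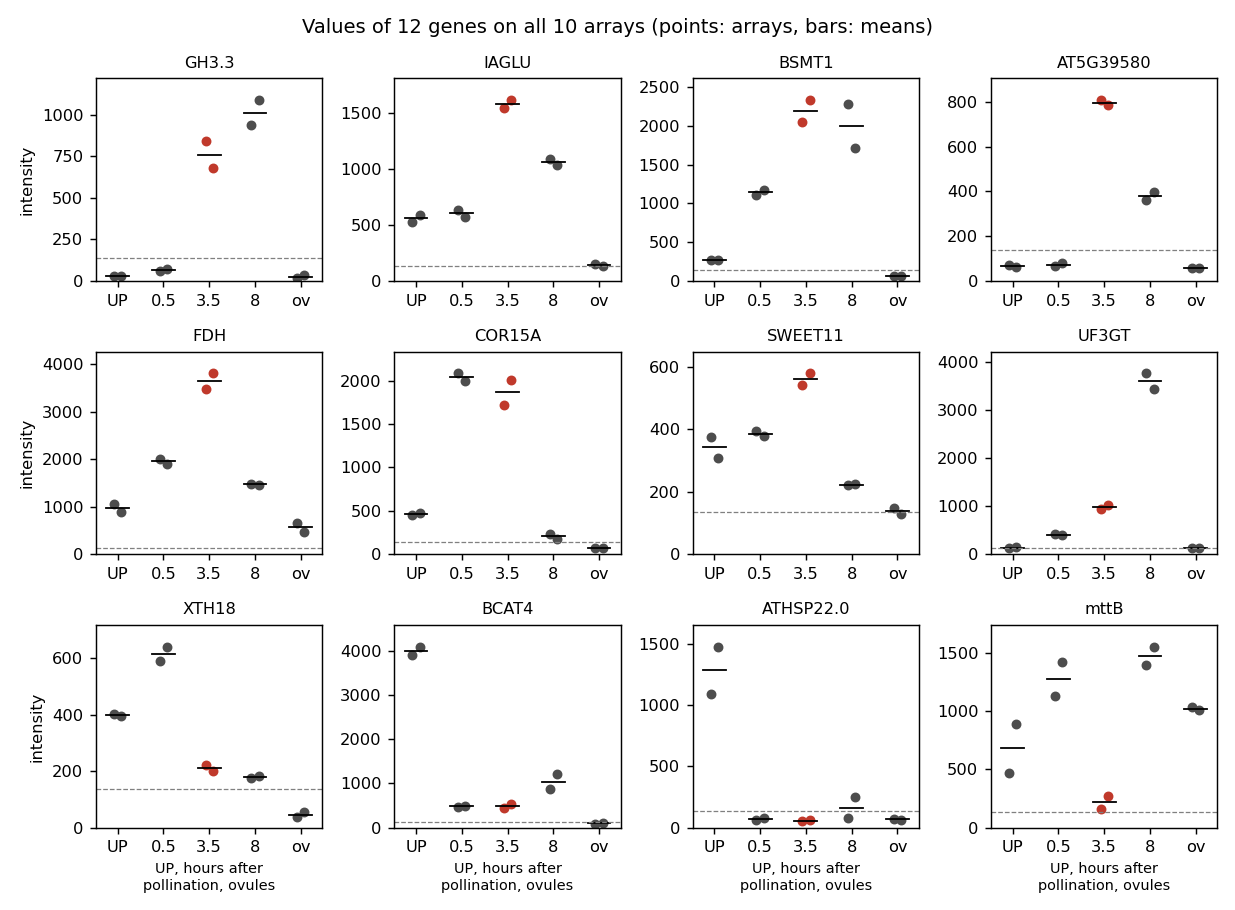
Intensity (y axis, from 0) of 12 genes on all 10 arrays; points are arrays, bars are means of 2, red points are 3.5 HAP, the dashed line is the background level, and the x axis gives unpollinated pistils (UP), hours after pollination and ovules (ov). GH3.3 and AT5G39580 sat at background level at 0.5 HAP and above it at 3.5 HAP, while BCAT4 and ATHSP22.0 were already low at 0.5 HAP.

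Cell wall loosening genes moved both ways. Of 29 expansins and xyloglucan enzymes 7 rose and 8 fell (24.1% and 27.6%, against 10.9% and 17.3% of all genes), and the falls numbered 5 without 3.5 HAP replicate 2. EXPB5 and EXLA3 rose from background level to just above it, to 152.0 and 127.6 and to 182.3 and 177.8. EXLB1, an expansin-like gene, went from 330.2 and 204.4 to 447.8 and 680.6 (2.06-fold, adjusted p = 0.00274), with replicates wide apart in both groups. It stood at 140.0 and 139.5 at 8 HAP, below every unpollinated value (adjusted p = 0.000121 for 8 against 3.5 HAP). The falls were led by xyloglucan endotransglucosylases, which cut and rejoin the chains that tether cellulose. XTH16 read 2593 and 1646 against 929.6 and 900.6 (2.24-fold, adjusted p = 0.00172) and XTH19 752.2 and 709.9 against 368.4 and 343.7 (2.01-fold, adjusted p = 8.51e-06). XTH18, next to XTH19 on chromosome 4, first read 588.6 and 639.9 at 0.5 HAP, above the unpollinated 401.8 and 395.8, and then 220.2 and 201.6 at 3.5 HAP (1.83-fold below unpollinated, adjusted p = 0.000234). EXGT-A3 fell 1.68-fold and missed without 3.5 HAP replicate 1 (adjusted p = 0.0592).

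Of 15 genes of glycosyl hydrolase family 9, endoglucanases that cut cellulose-type chains, 6 rose and 1 fell, where 10.9% and 17.3% of all genes did; the class was drawn up after values were seen. GH9A4 went from 41.5 and 39.7 to 243.6 and 337.6 (5.35-fold, adjusted p = 9.98e-08), GH9B8 from 109.7 and 150.7 to 457.1 and 414.3 (3.12-fold) and GH9C2 from 714.4 and 469.5 to 1333 and 1280 (2.22-fold, adjusted p = 0.000206). Values at 3.5 HAP were above both unpollinated values in each of them. GH9A4 and GH9B8 started at background level and GH9C2 did not. The 1 fall, GH9C1, was not called without 3.5 HAP replicate 1. SKU5, a copper-oxidase-like wall protein of directional growth, fell from 659.2 and 536.1 to 332.7 and 338.9 (1.74-fold, adjusted p = 0.000146) and stood at 792.2 and 746.6 at 8 HAP (adjusted p = 3.34e-05 for 8 against 3.5 HAP).

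Of 18 sugar transporters 7 rose (38.9%) and 1 fell (5.56%), against 10.9% and 17.3% of all genes, with between 5 and 8 rises when 1 array was left out, 3 falls without unpollinated replicate 1 and 0 falls without 3.5 HAP replicate 2. 6 of the 7 rises were SWEET genes, which let sugars out of cells along their gradient. The share of SWEET genes among the 18 was not counted, so nothing is read from the 6. SWEET11, a sucrose exporter, read 375.9 and 308.3 unpollinated, 541.7 and 578.1 at 3.5 HAP (1.61-fold, adjusted p = 0.000629) and 220.3 and 225.1 at 8 HAP. SWEET10 and SWEET3 rose 1.62- and 1.59-fold, and SWEET13 rose within the background level. SWEET7 fell 1.42-fold, a call lost without 3.5 HAP replicate 2 (adjusted p = 0.0868). SWEET4 was at 1300 and 991.9 against 1402 and 1551 and missed without either 3.5 HAP array or unpollinated replicate 2 (adjusted p between 0.0602 and 0.202).

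Of 13 cold and dehydration genes 6 rose (46.2%) and 0 fell, against 10.9% and 17.3% of all genes, and no array left out gave fewer than 6 rises. Each of the 6 was lower at 8 than at 3.5 HAP (11.3% of all genes were), a count from which nothing is read because both comparisons share the 3.5 HAP arrays. LTI30, a dehydrin that protects membranes and proteins in drying cells, read 43.8 and 43.0 unpollinated, 1100 and 1151 after 0.5 h, then 333.9 and 424.8 after 3.5 h. It was thus 6.61-fold above unpollinated pistils (adjusted p = 5.1e-07) and already below 0.5 HAP (adjusted p = 0.00019). COR15A, a chloroplast protein of cold acclimation, read 447.3 and 478.2 against 1723 and 2011 (3.92-fold, adjusted p = 6.06e-07), and 236.1 and 177.7 at 8 HAP (adjusted p = 1.88e-07 for 8 against 3.5 HAP). Its neighbour and relative COR15B, whose probe set may share signal with that of COR15A, rose 1.92-fold from 1321 and 1608. RD2, induced by desiccation, rose 1.70-fold.

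All 6 genes of the flavonoid list rose, with a median log2 difference of 0.83, and did so without any 1 array. CHI is no flavonoid gene here: its locus, AT2G43570, encodes a chitinase, so 5 of 5 pathway genes rose. Among all genes 10.9% rose. UF3GT, which adds a sugar to anthocyanins, read 122.6 and 140.6 unpollinated, 421.0 and 395.1 after 0.5 h, then 933.4 and 1031 after 3.5 h (6.77-fold, adjusted p = 8.76e-09). It rose on to 3767 and 3449 at 8 HAP. AT5MAT, which adds malonate to anthocyanins, rose 2.51-fold, DFR, of the step before anthocyanins, 1.69-fold, CHIL, which assists chalcone formation, 1.80-fold and BAN, of tannin synthesis in the seed coat, 1.75-fold. BAN is also on the ovule list, and it read 2509 and 2855 in ovules against 623.0 and 513.6 at 3.5 HAP. Of 50 UGT glycosyltransferases, the family to which UF3GT belongs, 10 rose (20.0%) and 7 fell (14.0%), against 10.9% and 17.3% of all genes (4 falls without 3.5 HAP replicate 2). UGT76E12 rose from background level, from 92.7 and 76.5 to 567.7 and 569.8 (5.83-fold, adjusted p = 4.29e-08), and was lower at 8 HAP.

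**Figure D4:**
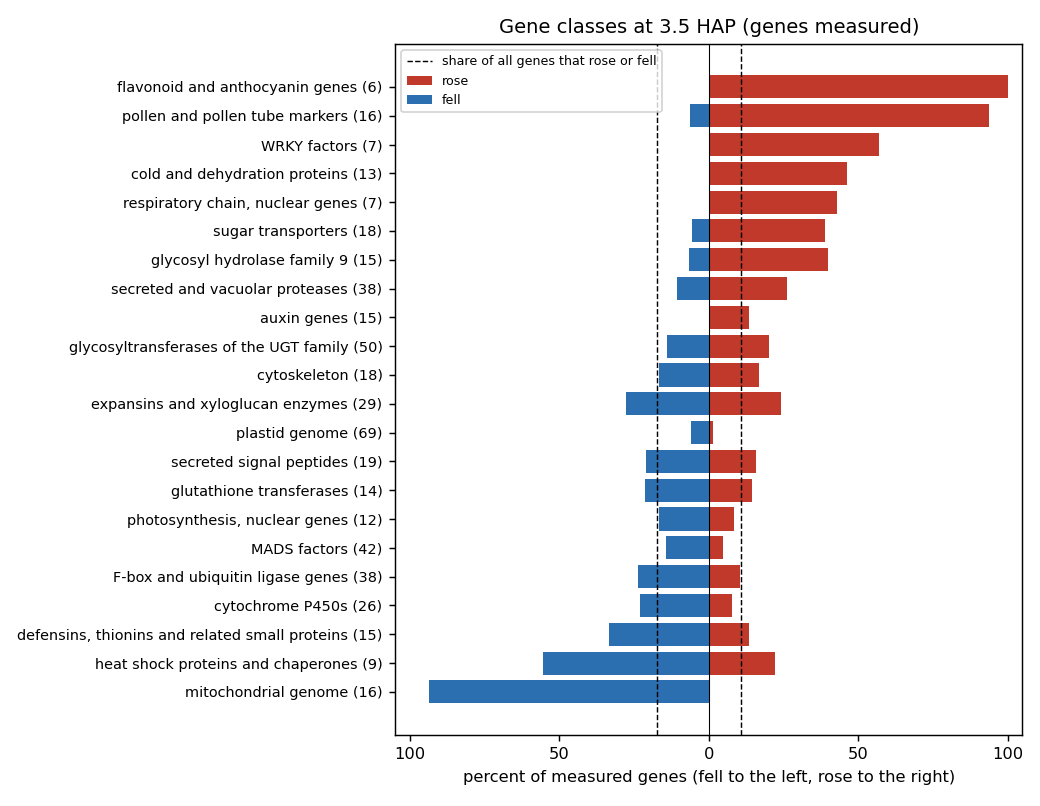
Percent of the measured genes of 22 classes that rose (red, to the right) or fell (blue, to the left) at 3.5 HAP by limma at an adjusted p of 0.05, with the number measured in parentheses; dashed lines mark 10.9% and 17.3%, the shares of all genes. Flavonoid genes (6, of which 1 is a chitinase) and pollen genes extend farthest right and genes of the mitochondrial genome farthest left.

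Calls on the marker lists of the female side went both ways, where 10.9% of all genes rose and 17.3% fell. On the list of 5 genes for stigma, style and transmitting tract, 2 rose (1 without 3.5 HAP replicate 2) and 1 fell (2 without 3.5 HAP replicate 1 or without unpollinated replicate 1), with a summed level of 4411.3 and 3983.8 against 8231.3 and 7164.8. ARPN, a plantacyanin of the transmitting tract, went from 1446 and 1049 to 5509 and 4852 (4.16-fold, adjusted p = 5.16e-07). The higher sum came from ARPN, and the median log2 difference of the list was -0.13. SPT, a factor of carpel margin growth, fell from 561.2 and 539.4 to 341.6 and 308.9 (1.66-fold, adjusted p = 9.39e-05). NGA1, a factor of style development, rose 1.31-fold and missed without 3.5 HAP replicate 2 (adjusted p = 0.0692), while CES read 1994 and 1891 against 1834 and 1476 (adjusted p = 0.11, and 0.0316 without 3.5 HAP replicate 1). AT1G72290, a Kunitz-type protease inhibitor, was at 2971 and 2565 at 3.5 HAP from 261.5 and 271.5 (9.83-fold), and back to 411.8 and 271.0 at 8 HAP (adjusted p = 7.52e-06). Among 6 ovule and embryo sac genes BAN rose and INO fell (0 falls without 3.5 HAP replicate 2, 2 without unpollinated replicate 1), and the summed level was 1616.6 and 1600.7 against 1753.1 and 1636.9. INO, which shapes the outer layer of the ovule coat, had a log2 difference of -0.32, a call lost without either 3.5 HAP array or unpollinated replicate 1 (adjusted p between 0.0783 and 0.166) and when centred on reference genes (adjusted p = 0.0541). The egg cell genes EC1.2 and EC1.5 did not pass, with adjusted p = 0.124 and 0.488 and overlapping groups. EC1.2 did pass, as lower, when replicate 1 of either group was left out (adjusted p = 0.0476 and 0.0479).

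Transcripts of the mitochondrial genome fell together, where 17.3% of all genes fell. Of 16 measured, 15 fell and the median log2 difference was -1.97; 14 or 15 fell without any 1 array. Their summed level was 12796.7 and 19800.8 in unpollinated pistils and 3991.4 and 4738.1 at 3.5 HAP. cox2, a subunit of the terminal oxidase, read 961.8 and 2001 unpollinated, 121.3 and 142.7 after 0.5 h, then 100.5 and 89.4 after 3.5 h (12.7-fold, adjusted p = 9.29e-07). nad9, of respiratory complex I, went from 1464 and 2385 to 159.0 and 173.2 (10.4-fold) and nad4L, of the same complex, from 662.0 and 1057 to 71.7 and 67.2 (9.99-fold). The groups were apart in each, although the unpollinated replicates differed widely, replicate 2 being the higher for 14 of the 16 genes. For nad5 the log2 difference was -2.36, or -1.74 without unpollinated replicate 2 and -2.99 without replicate 1. Without unpollinated replicate 2, whose actin ratio stood apart and whose GAPDH ratio did not, the median log2 difference of the 16 was -1.58. mttB, a membrane transport gene, differed in timing: it read 472.9 and 891.7 unpollinated, 1130 and 1418 after 0.5 h, 160.0 and 273.3 after 3.5 h, then 1400 and 1552 after 8 h. nad2 was the gene that did not pass (adjusted p = 0.433), and it was at background level on all 4 arrays compared.

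**Figure D5:**
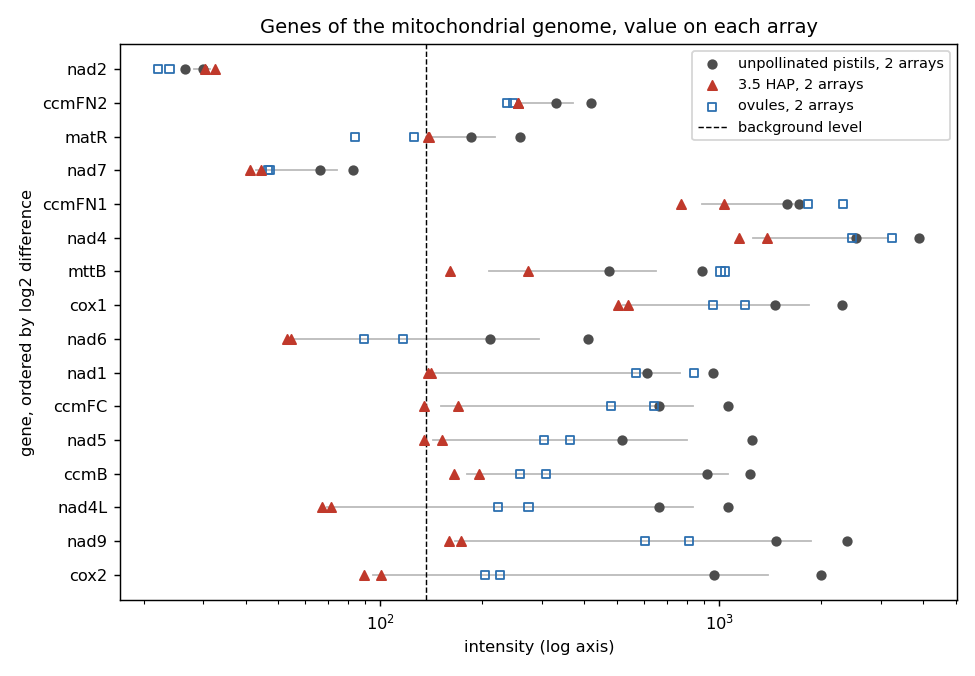
Intensity (x axis, log scale) of the 16 measured genes of the mitochondrial genome (y axis) on each array; grey circles are unpollinated pistils, red triangles 3.5 HAP, open blue squares ovules, with 2 arrays each, and the dashed line is the background level of 136.5. In 15 genes both triangles lie to the left of both circles.

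4 genes of chromosome 2 among the 25 largest falls lie in a stretch of that chromosome copied from the mitochondrial genome, so their signal and that of the mitochondrial copy cannot be told apart. AT2G07718 read 2264 and 2766 against 148.4 and 159.4 (14.8-fold, adjusted p = 4.8e-09) and AT2G07707 2098 and 2941 against 201.7 and 222.2. 69 plastid genes did not follow: 1 rose (1.45%) and 4 fell (5.8%), against 10.9% and 17.3% of all genes. Their median log2 difference was -0.05 and their summed levels were 172338.6 and 171451.5 against 158591.6 and 172094.4. The plastid counts depended on single arrays, with 7 rises and 2 falls without 3.5 HAP replicate 1, 0 and 12 without replicate 2, and 4 and 9 without unpollinated replicate 1. atpF and ycf3, both read from plastid DNA, fell 2.12- and 1.98-fold at 3.5 HAP and were back above the unpollinated values at 8 HAP. Of 7 nuclear genes of the respiratory chain 3 rose (42.9%) and 0 fell, against 10.9% and 17.3% of all genes. With the probe sets of each gene averaged, 2 rose. The 3 were subunits of succinate dehydrogenase: SDH1-1 rose 1.57-fold, SDH2-1 1.43-fold and SDH2-2 1.21-fold. Both arrays at 3.5 HAP exceeded both unpollinated arrays in each. The call of SDH2-2 was lost without either 3.5 HAP array or unpollinated replicate 2 (adjusted p between 0.0829 and 0.139).

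Of 9 heat shock proteins and chaperones 5 fell (55.6%) and 2 rose (22.2%), against 17.3% and 10.9% of all genes, with a median log2 difference of -0.73, and the counts were the same without any 1 array. ATHSP22.0, a small heat shock protein of the endomembrane system, read 1094 and 1476 unpollinated and 53.2 and 60.5 at 3.5 HAP (17.7-fold, adjusted p = 6.54e-06). It was already at 65.8 and 78.1 at 0.5 HAP. AT5G48570, an FKBP-type co-chaperone induced by heat, fell from 882.1 and 1482 to 108.3 and 101.4, and Hop3, which couples HSP70 and HSP90 chaperones and is not on the list, from 501.9 and 639.8 to 97.9 and 96.0 (5.16-fold). All 3 ended at background level, with no overlap between the groups. ATJ1, a mitochondrial co-chaperone, fell 2.05-fold, and the plastid chaperonins Cpn60beta2 and Cpn60beta3 fell 1.91- and 1.66-fold. The rises were Hsp70-2, by 1.59-fold, and CCS, by 2.95-fold. CCS delivers copper to superoxide dismutase and is no heat shock protein.

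Of 4 glucosinolate genes on the list 1 rose and 1 fell, and of 14 glutathione transferases 2 rose (14.3%) and 3 fell (21.4%), shares near the 10.9% and 17.3% of all genes. Without 3.5 HAP replicate 1 the transferases held 1 rise and 1 fall. BCAT4, which starts the chain elongation of methionine for aliphatic glucosinolates, read 3900 and 4086 unpollinated, 476.7 and 495.4 after 0.5 h, then 454.3 and 536.6 after 3.5 h (7.86-fold, adjusted p = 2.85e-07). UGT74B1, of the UGT list, which adds glucose in the core pathway, fell from 2233 and 1995 to 1116 and 1151 (1.85-fold) and GSTU20, a glutathione transferase, from 1120 and 1224 to 440.2 and 455.3 (2.56-fold). GTR2, a glucosinolate importer, rose from 690.7 and 566.4 to 947.2 and 958.9 (1.51-fold, adjusted p = 0.00176). These 4 genes came from several lists and all had passed, so nothing is read from their directions together. On the glucosinolate list 2 genes did not pass, and its median log2 difference was 0.05. AT2G23540, a GDSL-type lipase, and AT4G38080, of hydroxyproline-rich wall proteins, fell 13.7- and 11.7-fold into the background level, from 995.7 and 831.1 and from 510.0 and 481.9.

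Of 15 defensins, thionins and related proteins, a class drawn up after values were seen, 2 rose (13.3%) and 5 fell (33.3%), against 10.9% and 17.3% of all genes, with 2 falls without 3.5 HAP replicate 2. PDF1.4, a defensin, fell from 323.6 and 478.5 to 117.2 and 128.4 (2.96-fold, adjusted p = 3.45e-05), and LCR72, of the same kind, rose from 80.7 and 129.2 to 320.6 and 600.3 (3.84-fold, adjusted p = 0.000124). Of 38 secreted and vacuolar proteases 10 rose (26.3%), or 6 without 3.5 HAP replicate 2, and 4 fell (10.5%), or 6 without unpollinated replicate 1. The carboxypeptidase-like scpl38 went from 55.5 and 62.1 to 819.3 and 888.9 (11.6-fold, adjusted p = 1.55e-09) and its relative scpl47 from 1164 and 1065 to 421.4 and 396.1 (2.66-fold, adjusted p = 1.45e-06). Of 12 nuclear photosynthesis genes 1 rose (8.33%) and 2 fell (16.7%), shares near those of all genes. HCF101, of iron-sulfur cluster supply, rose (log2 0.37). LHCB4.2, an antenna protein, fell 1.58-fold from 5148 and 5813, and PORB, of chlorophyll synthesis, 1.49-fold from 4340 and 3927. Among probe sets with no gene name, 2835 of 8730 (32.5%) differed, and their genes are not analysed here.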

How the data were processed

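RNA of pistil and ovule pools was amplified in 2 rounds and hybridised to 1-colour Affymetrix arrays, per the labels' protocols; amplification can change the balance between the ends of a transcript. The values are the linear intensity per probe set that the authors deposited. MAS5 is listed, without its role, per the submitters' processing notes, and the scaling used is not given in the sources used here. Of the tested probe sets, 13512 name 1 gene, 503 several and 8730 none; 13349 genes remained, 13343 of them matched to the TAIR10.1 gene table.

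The values were tested as log2(value + 16) in 1 fit over all 5 groups with limma 3.58.1 (R 4.3.3) with an intensity trend, 5 residual and 6.106 prior degrees of freedom, and Benjamini-Hochberg adjustment over all tested probe sets at 0.05. Tables and plots used Python 3.11.15, pandas 2.3.3 and matplotlib 3.10.9. The fit was tested on simulated data.

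The members and gene lists were chosen with earlier results of these data known. Named genes are the 25 largest rises and falls, up to 4 per list and direction, and all members of lists of up to 8, where groups were apart and the higher mean was above background, with marker genes. ADPG1, ANX1, ANX2, AT5G45840, AT4G39110, AT2G21480, AT3G26880, GH9C1, CCR2, IAGLU, ARL, BSMT1, SWEET13, SWEET4, FDH, PPDK, ECS1, mttB, nad2, HCF101, Cpn60beta3 and the genes named only for a lost call were chosen after their values were seen. 7 classes, including family 9 hydrolases and defensins, were also drawn up then. Roles of loci without a symbol are family-level general knowledge. Promoter motifs were not searched.

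Alternatives changed the normalization, pseudocount (1 and 64), filter, samples in the fit, trend and replicate block, and left out each array. Same-numbered arrays of the 2 groups deviated with a correlation of -0.051, and the main fit did not pair them. For unpollinated pistils and ovules the correlation was -0.323. Whether replicate numbers stand for a shared harvest or batch was not tested.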

Additional observations from a re-analysis of the deposited data

Results flagged for a closer look

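For 15 genes the difference from unpollinated pistils was called at 3.5 HAP, both arrays at another time lay on the opposite side of both unpollinated arrays, and the direct limma test between the times passed. Differences are on the log2(value + 16) scale, with Benjamini-Hochberg adjusted p. From 0.5 to 3.5 HAP, JRG21 differed by 1.2 (adjusted p = 5.74e-05) and CHI, a chitinase, by 1.44 (4.54e-06), from below to above the unpollinated level. Over the same interval XTH18 differed by -1.47 (2.42e-05), mttB by -2.51 (0.000169), atpF by -1.57 (0.000142), ycf3 by -1.22 (0.00199) and psbA by -0.89 (0.0022), from above to below it. The call of psbA at 3.5 HAP did not pass when 3.5 HAP replicate 1 (adjusted p = 0.105) or unpollinated replicate 2 (0.103) was left out.

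From 3.5 to 8 HAP, EXLB1 differed by -1.87 (0.000121), SWEET11 by -1.27 (3e-05), SWEET3 by -0.89 (0.000314), COR15A by -3.09 (1.88e-07), COR15B by -1.33 (4.36e-05) and HCF101 by -0.45 (0.00166), from above to below the unpollinated level. SKU5 differed by 1.16 (3.34e-05), mttB by 2.72 (6.6e-05), atpF by 1.47 (0.000127), ycf3 by 1.22 (0.000923) and LCR24, a defensin-like gene, by 1.05 (2.9e-05), from below to above it.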

How the results depend on the processing

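The total of 6796 probe sets called at 3.5 HAP was 6674 after quantile normalization, 5218 when centred on 7 reference genes, 6797 and 6763 with pseudocounts of 1 and 64, 5238 without the dimmest 40% of probe sets, 7142 with only the pistil groups in the fit, 4538 with only the 2 groups compared and 6714 without the intensity trend. With each array left out in turn it ranged from 3981 (without 3.5 HAP replicate 2) to 8157 (without unpollinated replicate 1). With replicate number as a block it was 6285, and WRKY20 did not pass (adjusted p = 0.0569). For the difference at 3.5 HAP of the 147 genes examined singly, 0 changed direction, 11 lost the call in at least 1 alternative (29 of 1886 combinations of gene and alternative) and 3 gained it; the causes were not tested. Signal over background limits what can be said of low genes: the log2 difference of GH3.3 was 4.04 and that of AT3G26870 3.56, and both shrink as the pseudocount grows. Only 2 arrays per group limit the precision, and 9285 probe sets had an unadjusted p under 0.05.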
